A study of Rattus norvegicus with 9 samples.

Results

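The miRNA content of untouched rat cornea was described from 3 small RNA libraries labelled normal cornea, taken from Wistar rats of 6 weeks. Members were the mature miRNAs with at least 5 RPM, the reads of a miRNA scaled to a common library total, in each of these 3 libraries, which held for 235 of the 765 miRNAs listed. The series holds 9 libraries in all, and the isograft and allograft corneas were not used here. Each of the 9 carries the same strain and age label. Libraries are called normal 12, normal 34 and normal 56 after the number in their title, whose meaning is not given. No label states that they came from separate animals, so the spread between them may be technical.

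The cornea is the clear front of the eye. A stratified epithelium covers a collagen-rich stroma of flattened fibroblasts called keratocytes, with a monolayer of corneal endothelium behind it, and the healthy centre holds no blood vessels. A miRNA is cut from a hairpin transcript by Drosha and Dicer, and usually the strand of 1 hairpin arm is kept by an Argonaute protein while the other is degraded. Bases 2 to 8 of the kept strand, the seed, do most of the target recognition, so miRNAs with a common seed can recognise overlapping sets of messenger RNAs. miR-184 is known from corneal and lens epithelium, miR-205 and miR-203 from stratified epithelia, and the miR-200 family from epithelial cells at large.

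Seeds could be read only for miRNAs with a sequence in the reference used. The leading miRNAs of the 12 seed groups with the most reads among these are shown first. Together these groups took 85.4% ± 1.08 of the reads of all listed miRNAs (SD, n = 3). Sequences are those of RefSeq for the assembly GRCr8, written 5′ to 3′ with the seed in capitals and in order of the share of their group.
miR-184: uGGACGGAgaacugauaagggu
let-7f-5p: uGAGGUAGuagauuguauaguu
miR-148a-3p: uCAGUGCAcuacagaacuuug
miR-203a-3p: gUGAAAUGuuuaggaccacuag
miR-205: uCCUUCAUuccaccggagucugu
miR-26a-5p: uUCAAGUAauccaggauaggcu
miR-27b-3p: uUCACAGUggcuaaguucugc
miR-30c-5p: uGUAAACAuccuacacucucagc
miR-21-5p: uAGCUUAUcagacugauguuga
miR-199a-3p: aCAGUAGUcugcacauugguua
miR-204-5p: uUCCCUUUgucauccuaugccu
miR-125b-5p: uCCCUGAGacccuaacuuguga
Of the 235 members 211 had a sequence in that table and 24 did not. The 24 included miR-200b-3p, miR-200a-3p, miR-429, miR-99a-5p, miR-30b-5p and miR-30d-5p, which are therefore absent from the seed groups. Their absence affects which groups rank among the 12. miR-200b-3p at 11993 RPM and miR-99a-5p at 11954 each exceeded the whole miR-30c-5p group as counted, at 8793. All miRNAs without a sequence held 6.26% of the listed reads.

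RPM were computed on totals of 11013517, 11007056 and 11007905 reads in normal 12, normal 34 and normal 56. The listed miRNAs made up 46.6%, 65.6% and 60.7% of those reads, and what the others were is not stated. Shares below are therefore given of the listed reads. Between 466 and 498 miRNAs were detected per library, and 224 were at 0 in all 3. A level of 5 RPM was worth 55 reads. Across the 235 members the log2 levels of any pair of libraries correlated at Pearson's r of 0.990 to 0.993, a description over miRNAs that are not independent of each other. In the labelled tissue the epithelial markers were present at high levels, as given below. Levels of different miRNAs are compared per molecule read, since mature miRNAs are of nearly 1 length. Unequal ligation of different sequences in library preparation was not tested.

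A single miRNA took about as many reads as all others together. miR-184 was at 214371, 339752 and 311966 RPM in normal 12, normal 34 and normal 56. It held 46.0% of the listed reads in normal 12 (95% exact binomial interval 45.9 to 46.0), 51.8% in normal 34 (51.8 to 51.9) and 51.4% in normal 56 (51.3 to 51.4). Normal 12 was the lowest on both scales. The mean of 288696 RPM ± 65850 was 10.2 times that of the next miRNA, miR-148a-3p, and the ranges did not touch. The hairpin of miR-184 is shown because its other arm is not among the listed miRNAs, with the mature miRNA in capitals.
miR-184 hairpin: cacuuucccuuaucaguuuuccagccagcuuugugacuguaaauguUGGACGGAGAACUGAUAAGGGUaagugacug

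Behind miR-184 came a step of 3 miRNAs with overlapping levels. miR-148a-3p was at 24570, 30760 and 29340 RPM in normal 12, normal 34 and normal 56. miR-203a-3p, which restrains proliferation as keratinocytes leave the basal layer, was at 21386, 36441 and 23982 RPM. miR-205, a miRNA of basal epithelial cells, was at 20546, 24542 and 25057 RPM. By RPM miR-203a-3p had the widest range of this step, being high in normal 34 alone, while miR-148a-3p and miR-205 were low in normal 12 alone. By share of listed reads normal 12 was instead the highest for miR-205, at 4.41%, 3.74% and 4.13% in normal 12, normal 34 and normal 56. The same held for all miR-148 arms together, at 5.40%, 4.81% and 4.95%. miR-203a-3p stayed highest in normal 34, at 4.59%, 5.56% and 3.95%. A gap followed, since the lowest value of miR-205 lay above the highest of miR-26a-5p.

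The next 6 were miR-26a-5p at 16950 RPM ± 957, let-7f-5p at 15800 ± 1264, let-7i-5p at 15482 ± 1601, miR-27b-3p at 12262 ± 1737, miR-200b-3p at 11993 ± 1930 and miR-99a-5p at 11954 ± 1654 (SD, n = 3 each). miR-26a-5p is a growth-restraining miRNA of many differentiated tissues, and miR-99a-5p a relative of miR-100-5p that targets mTOR. These 10 miRNAs were the 10 most abundant of every library. Ranks 11 to 20 held let-7g-5p, miR-21-5p, let-7c-5p, miR-199a-3p, miR-204-5p, miR-30d-5p, miR-125b-5p, miR-30c-5p, let-7a-5p and miR-378a-3p, from 8843 RPM ± 762 down to 3889 ± 846. Ranks 21 to 30 held miR-30a-5p, miR-200c-3p, miR-200a-3p, miR-182, let-7b-5p, miR-100-5p, miR-127-3p, miR-24-3p, miR-191a-5p and miR-26b-5p, down to 1772 RPM ± 140. miR-21-5p is known to rise with injury and growth, and miR-127-3p comes from an imprinted region described below. Of the 30, 27 were among the 30 most abundant of each library.

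The order within the list was coarse. Of the 29 pairs of neighbours among the 30 most abundant miRNAs, 23 overlapped in their ranges over the libraries, and 11 kept 1 order in 3 of 3 libraries. Besides the steps below miR-184 and miR-205, ranges parted between miR-99a-5p and let-7g-5p, let-7c-5p and miR-199a-3p, miR-30d-5p and miR-125b-5p, and miR-30a-5p and miR-200c-3p. miR-199a-3p and miR-204-5p had nearly equal means, at 6008 and 6007 RPM. miR-199a-3p was the higher in normal 12, and miR-204-5p in normal 34 and normal 56.

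**Figure D1:**
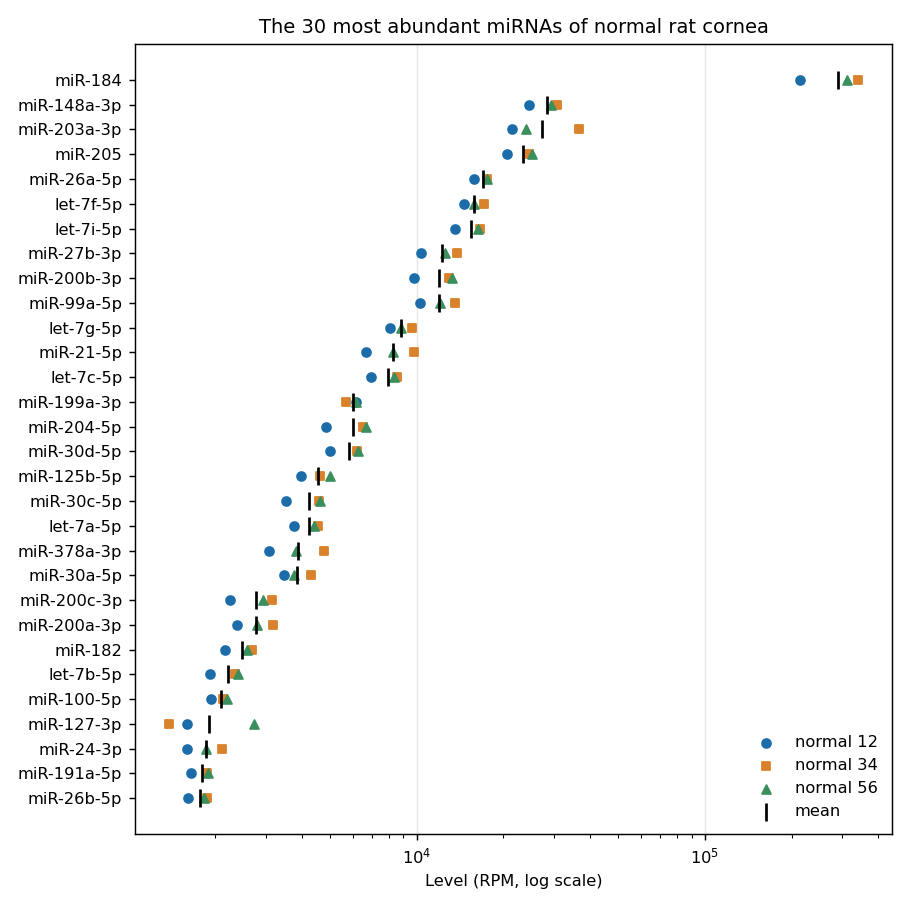
Level in RPM (log axis) of the 30 most abundant miRNAs in the 3 normal libraries (coloured symbols) with their mean (black bar). miR-184 stands apart at 214371 to 339752 RPM, and normal 12 is the lowest library for miR-184 and most of the others.

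Reads were concentrated in few miRNAs. The 10 most abundant miRNAs of a library held 78.2% ± 1.81 of its listed reads and the 30 most abundant 92.9% ± 0.806 (SD, n = 3). It took 25, 21 and 22 miRNAs to reach 90% of the listed reads in normal 12, normal 34 and normal 56, and 95, 84 and 91 to reach 99%. The diversity of the pool, as the exponential of Shannon's entropy, equalled that of 14.3, 11.2 and 11.8 equally abundant miRNAs. Leaving out miR-184 raised it to 38.5, 35.8 and 38.3. Normal 12 was the most even library on each of these measures.

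At the low end, 109 of the 235 members had means below 50 RPM and held 0.391% of the listed reads between them. Another 72 lay from 50 to 500 RPM, 38 from 500 to 5000 and 16 above. Together the 235 members held between 99.9267% and 99.9466% of the listed reads. Of the miRNAs left out, 14 reached 5 RPM in 2 libraries and 17 in 1. Just inside the limit by their lowest library were miR-874-3p at 5.08, miR-190b-5p at 5.09, miR-340-3p at 5.27 and miR-7a-1-3p at 5.36 RPM. Just outside were miR-224-5p at 4.997, miR-152-5p and miR-329-5p at 4.82 each and miR-15a-5p at 4.81 RPM.

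**Figure D2:**
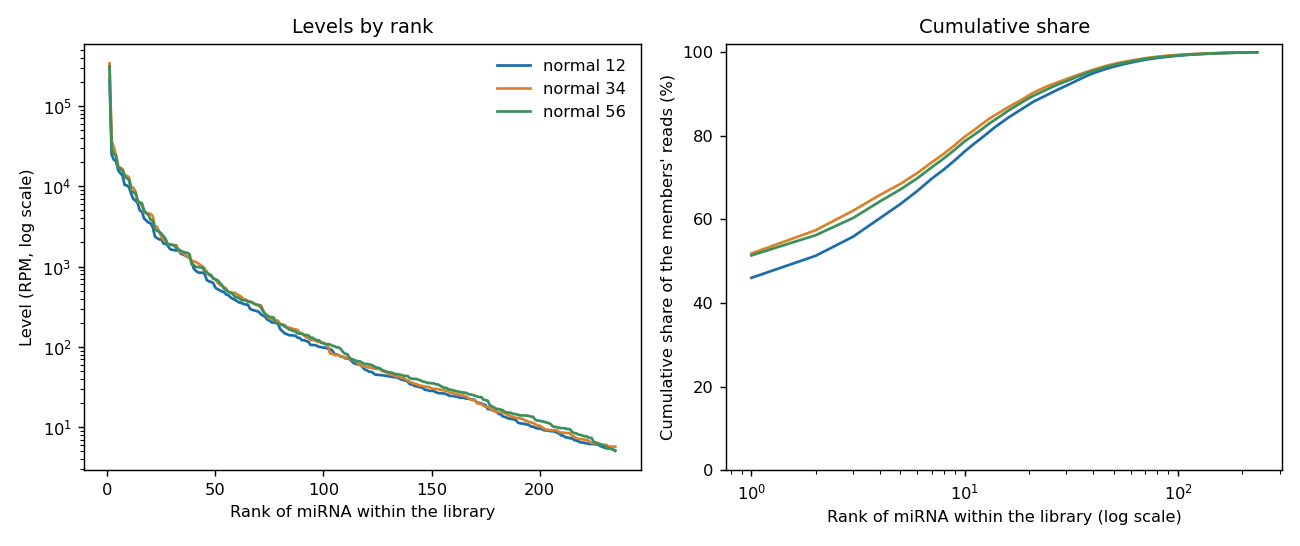
Left, level in RPM (log axis) of the 235 miRNAs against their rank within each normal library; right, cumulative share in percent of their reads against rank (log axis). The curves start at 46.0% in normal 12 and 51.4% and 51.8% in the other two libraries.

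Grouping by seed left the top unchanged and moved let-7 to the next place. The 211 members with a sequence carried 165 seeds, of which 138 belonged to 1 member and 27 to 2 or more. The let-7 seed group, regulators of developmental timing that are high in differentiated cells, held 10.7%, 9.11% and 9.39% of the listed reads in normal 12, normal 34 and normal 56. The miR-148 and miR-152 seed group held 5.34% ± 0.379, miR-203a-3p 4.70% ± 0.811, miR-205 4.09% ± 0.333, the miR-26 group 3.29% ± 0.407 and the miR-27 group 2.40% ± 0.107 (SD, n = 3 each). The miR-30 members with a sequence held 1.54% ± 0.0923. Grouped by the number in the name, which includes members without a sequence, all miR-30 arms held 2.76% ± 0.155 and all miR-200 arms 3.11% ± 0.0940.

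Several seed groups were held mostly by 1 of their members, and others were more evenly divided. miR-148a-3p made up 92.4% of its group, miR-26a-5p 90.5%, miR-27b-3p 88.9%, miR-204-5p 99.5% beside miR-211-5p, and miR-29a-3p 99.1% beside miR-29b-3p and miR-29c-3p. The miR-125 group was spread more widely, with 76.7% for miR-125b-5p. miR-30c-5p made up 48.2% of its group as counted, and miR-20a-5p 44.6% of its group. In the miR-146 group, feedback inhibitors of innate immune signalling, miR-146a-5p made up 52.1% and miR-146b-5p the rest. The miR-15/16 group held miR-16-5p, miR-195-5p, miR-15b-5p, miR-497-5p and miR-322-5p with 60.1% for miR-16-5p.

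The let-7 group was the most divided of the 12. Its 9 members are printed with the seed in capitals, to show how little sequence separates them.
let-7f-5p: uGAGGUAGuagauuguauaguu
let-7i-5p: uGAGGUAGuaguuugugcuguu
let-7g-5p: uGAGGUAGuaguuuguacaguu
let-7c-5p: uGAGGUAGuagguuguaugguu
let-7a-5p: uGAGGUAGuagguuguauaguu
let-7b-5p: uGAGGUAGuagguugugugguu
let-7d-5p: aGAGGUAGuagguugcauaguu
let-7e-5p: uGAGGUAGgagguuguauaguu
miR-98-5p: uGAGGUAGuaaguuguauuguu
let-7f-5p made up 28.5% of the group, let-7i-5p 27.9%, let-7g-5p 15.9%, let-7c-5p 14.3%, let-7a-5p 7.62%, let-7b-5p 4.0%, let-7d-5p 0.859%, let-7e-5p 0.737% and miR-98-5p 0.196%. Each differs from its nearest relative at 1 or 2 positions: let-7a-5p differs at 1 position from let-7c-5p, let-7e-5p and let-7f-5p. The rule for reads that fit several miRNAs is not given, so the split between such neighbours is uncertain. let-7a-1-3p and let-7c-2-3p, which have the same sequence, were listed with the same value in each library, at 105, 116 and 129.9 RPM. Whether shared reads were counted more than once in the let-7 group was not tested.

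**Figure D3:**
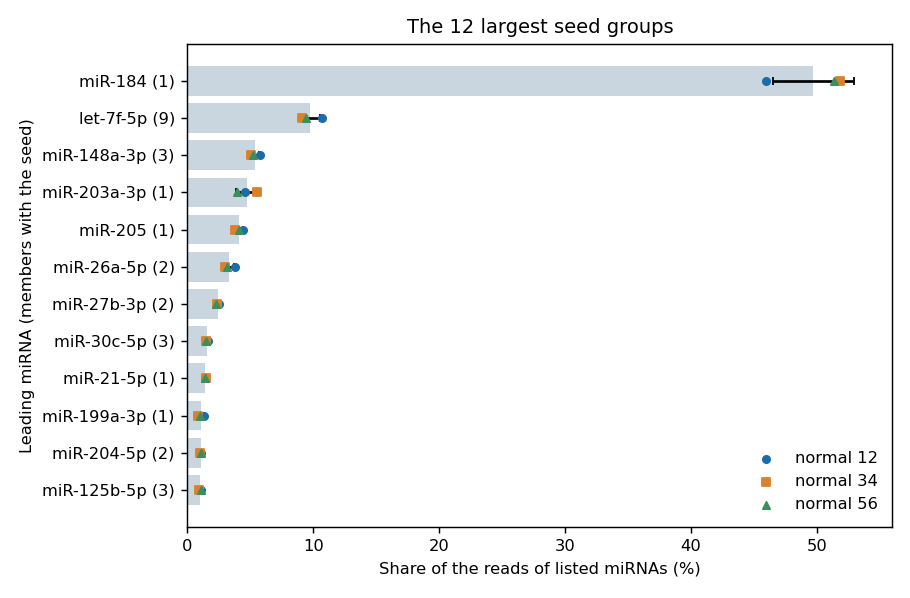
Share in percent of the listed reads taken by the 12 largest seed groups, formed from miRNAs with a sequence only. Groups are named by their leading miRNA with the number of members in brackets. Bars are means, error bars SD over the 3 libraries and symbols the libraries. miR-184 takes 49.7% ± 3.24, and the let-7 group is next at 9.73% ± 0.833.

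Members tended to start with U. Of the 211 with a sequence 49.8% did, against 30.1% of the 478 listed miRNAs with a sequence that were not members, and among the 26 of the 30 most abundant with a sequence it was 80.8%. Argonaute proteins are known to favour U or A at this position. By reads the share was 89.1%, or 76.8% without miR-184. A was the first base of 23.7% of the members, below its 32.2% among the listed miRNAs that were not members. By reads A took 4.19%. G was the first base of 6.16% of the members and C of 20.4%. Of the members 92.9% were 21 to 23 bases long, with a range from 18 to 25. These are descriptions of the lists, with no test.

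Both arms were listed under the same name for 283 hairpins, and in 146 the higher arm was a member. The 5p arm was the higher in 77 hairpins and the 3p arm in 69, which became 89 and 91 with a limit of 1 RPM. The side was the same in 3 of 3 libraries for every one of the 146. The preference was steep: with arms at 0 set to 3 reads, the median ratio of higher to lower arm was 56.3, and it exceeded 10 in 110 hairpins and 100 in 58. The SD of the log2 ratio over the libraries had a median of 0.229, far below these ratios. In 33 hairpins an arm was at 0 in at least 1 library. There the 3 reads scored an arm at 0 above an arm with 1 read, which kept its value. For let-7g the log2 ratio was 16.4 and 16.7 with 1 read of the 3p arm, in normal 12 and normal 34. It was 15.0 with 0 reads, in normal 56. Both arms were members in 47 hairpins. The other 42 members had no partner of the same name, among them miR-184, miR-205, miR-182 and miR-429.

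The most skewed hairpins left almost no reads of the lower arm. Towards 5p they were let-7g, miR-26a, miR-21, miR-100, let-7i and miR-99a. let-7g-3p had 2 reads against 292067 of let-7g-5p over the 3 libraries, a share of 0.000685% (95% exact binomial interval 8.29e-05 to 0.00247). miR-26a-3p had 22 reads against 559832, and miR-21-3p 22 against 272746. Towards 3p the most skewed were miR-203a, miR-200c, miR-101a, miR-29a, miR-23a and miR-320. miR-203a-5p had 12 reads against 900637 of miR-203a-3p, or 0.00133% (0.000688 to 0.00233), and miR-200c-5p had 13 against 91630. miR-320-5p had no read in any library and was at least 2312-fold lower than miR-320-3p, with 3 reads per library as the floor. Intervals and floors cover counting error only. The intervals pool the reads of the 3 libraries and leave out the spread between them. In normal 12, normal 34 and normal 56 there were 2, 7 and 3 reads of miR-203a-5p and 1, 7 and 5 of miR-200c-5p. These reads also carry no molecular identifiers.

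Arms of similar level were few. A ratio under 2 was seen in 7 hairpins: miR-30e, miR-382, miR-455, miR-362, miR-409a, miR-503 and miR-345. Of these only miR-30e had an arm with a mean above 50 RPM. miR-30e-5p was at 653, 791 and 695 RPM in normal 12, normal 34 and normal 56, and miR-30e-3p at 371, 476 and 473 RPM, a log2 ratio of 0.70 ± 0.13 (SD, n = 3) with 5p higher in 3 of 3 libraries. The next nearest to equal among hairpins above 50 RPM all had log2 ratios past 1 in size: -1.23 ± 0.16 for miR-361, -1.42 ± 0.26 for miR-423, -1.44 ± 0.05 for miR-674, 1.52 ± 0.18 for miR-3559 and -1.63 ± 0.19 for miR-106b. The hairpin of miR-382 is printed as the pair nearest to equal, chosen after its values were seen, with both mature arms in capitals.
miR-382 hairpin: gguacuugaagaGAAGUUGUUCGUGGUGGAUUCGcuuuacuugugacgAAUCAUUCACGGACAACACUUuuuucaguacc
miR-382-5p was at 32.2 RPM ± 10.99 and miR-382-3p at 33.6 ± 10.9.

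The first base also parted the arms. Of 133 higher arms with a sequence 56.4% began with U, and of 131 lower arms 19.8%. C was the first base of 14.3% of the higher and 33.6% of the lower arms, and A of 23.3% and 32.8%. The median length was 22 bases in each.

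**Figure D4:**
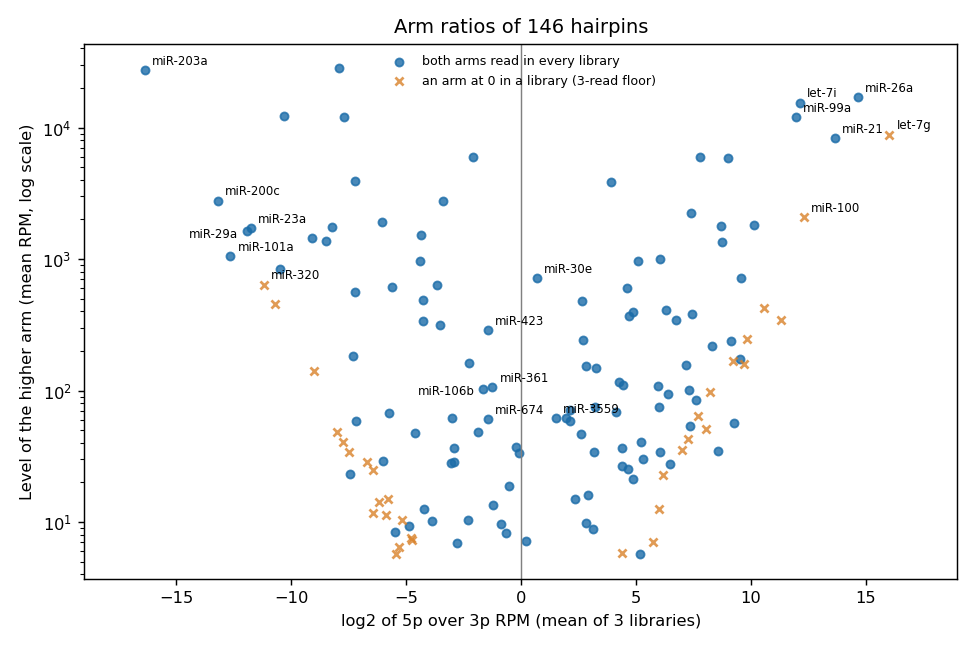
Mean log2 of 5p over 3p RPM over the 3 libraries (horizontal) against the mean level of the higher arm in RPM (vertical, log axis) for 146 hairpins; crosses mark hairpins with an arm at 0 in a library, where 3 reads stand in for 0. Few points lie near 0, and miR-203a lies farthest to the 3p side.

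Epithelial miRNAs dominated the markers of cell types. The list of corneal and stratified epithelium (miR-184, miR-205, miR-203a, miR-203b and miR-31a) held 58.7% ± 3.16 of the listed reads (SD, n = 3). Of its 8 arms 5 were members, beside 235 of all 765 listed miRNAs, or 30.7%. miR-184 alone made up 84.8% of the summed level of the list. Without miR-184 in the list and in the total the share was 17.9%. miR-31a-5p, a miRNA of keratinocytes, was at 883, 1138 and 976 RPM in normal 12, normal 34 and normal 56. These levels come from whole tissue, in which more cells of a type and more of a miRNA per cell cannot be told apart.

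The miR-200 family held 3.20% ± 0.0929 and had 7 of 9 arms among the members, with the smallest spread of its share, relative to its size, among the 15 lists. The family is known for repressing the ZEB factors that drive cells out of the epithelial state. miR-200b-3p led at 9771, 12960 and 13248 RPM in normal 12, normal 34 and normal 56. miR-200c-3p, from the other gene cluster of the family, was at 2774 RPM ± 457, equal in mean to miR-200a-3p at 2774 ± 397. miR-141-3p, whose gene neighbours that of miR-200c, was 97.5-fold below it at 28.5 RPM ± 4.23. miR-182, miR-183-5p and miR-96-5p of the sensory epithelial cluster were at 2478 RPM ± 273, 713 ± 92.3 and 158 ± 14.9.

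miRNAs listed for neighbouring eye tissues were unequal in level. Which cells of the samples held them was not tested, so these lists do not place reads outside the cornea. miR-204-5p, made from an intron of Trpm3 and known from lens, iris and retinal pigment epithelium, was at 4836, 6499 and 6687 RPM in normal 12, normal 34 and normal 56. miR-211-5p, its seed relative known from pigment cells, was at 23.2, 31.7 and 27.5 RPM. The neuron list summed to 740 RPM ± 101, or 0.129% ± 0.00602 of the listed reads. Of its 23 arms 5 were members, beside 235 of all 765 listed miRNAs. They were led by miR-7a-5p at 518 RPM ± 64.6, a miRNA also made in endocrine cells. miR-128-3p was at 162 RPM ± 31.0, miR-9a-5p at 40.3 ± 4.21, miR-138-5p at 8.02 ± 1.62 and miR-7a-1-3p at 5.90 ± 0.868. The neuronal miR-124-3p did not exceed 0.454 RPM.

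The list of stroma, fibroblast and smooth muscle, called stromal here, held 1.95% ± 0.570 of the listed reads. It included miR-143, miR-145, miR-10a and miR-10b, whose levels are given further below. Of these miR-143-3p held 0.468%, 0.146% and 0.160% in normal 12, normal 34 and normal 56, so the share and its spread are not of stroma alone. miR-199a-3p led at 6150, 5711 and 6163 RPM in normal 12, normal 34 and normal 56, and miR-199a-5p followed at 1442, 1324 and 1485 RPM. miR-152-3p was at 1759 RPM ± 163. miR-214-3p, from the same mesenchymal transcript as miR-199a, was at 40.4 RPM ± 2.49. The miR-29 arms formed a list of their own and are not part of the stromal share. miR-29a-3p, which represses collagen genes, was at 1633 RPM ± 217. miR-29b-3p was at 9.30 ± 1.72, and miR-29c-3p, at 5.36 ± 0.637, fell below 5 RPM in normal 12.

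Leukocyte miRNAs were low. Their 15 arms summed to 313, 309 and 300 RPM in normal 12, normal 34 and normal 56, or 0.0546% ± 0.0110 of the listed reads. Of the 15 arms 5 were members, near the share over all listed miRNAs, of which 30.7% were members. miR-146a-5p, which epithelial cells also make, accounted for 77.8% of the sum at 238, 245 and 235 RPM. The pan-leukocyte miR-142-3p was at 3.995, 1.64 and 2.82 RPM and miR-142-5p at 4.09, 3.36 and 3.09, all under the limit. The myeloid miR-223-3p was at 9.17, 6.00 and 5.45 RPM, the lymphocyte miR-150-5p at 32.7, 30.1 and 26.9, and the activation-linked miR-155-5p at 6.81, 6.63 and 7.72. Both arms of miR-511, a macrophage miRNA, stayed at or below 0.545 RPM.

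Lists for tissues foreign to the cornea were unequal in level. The liver and plasma list summed to 566 RPM ± 76.8, or 0.0987% of the listed reads. The muscle list summed to 283 RPM ± 40.0, or 0.0508%, and the pancreatic list to 10.8 ± 3.17. Beside these, the vascular endothelium list held 0.0981% and the leukocyte list 0.0546%. In the early embryo cluster 10 of 11 arms were at 0 in all 3 libraries, and miR-293-5p was at 0.0908 RPM in normal 56, the value of 1 read. Of the 8 pancreatic arms none was a member; miR-217-5p was at 5.03 RPM ± 1.63 and miR-375-3p at 4.78 ± 1.20. In the muscle list 10 of 16 arms were at 0 in all 3 libraries, beside 224 of all 765 listed miRNAs. miR-1b was at 273, 225 and 193 RPM and miR-499-5p at 38.0, 49.1 and 40.8, but miR-133a-3p was at 7.51 RPM ± 1.32, miR-206-3p at 1.57 ± 0.367 and miR-1-3p at 0.666 ± 0.189. Of the miRNAs known from liver and blood plasma, miR-192-5p was at 343 RPM ± 56.02, miR-194-5p at 157 ± 16.4 and miR-122-5p at 64.3 ± 35.4.

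The 3 libraries each stood apart in a group of named miRNAs. Over all members the median coefficient of variation was 14.3%, beside a median counting error of 3.85%. It was 11.3% for shares of the listed reads. Only 9 members exceeded 50%. Among members with a mean of at least 50 RPM the 8 largest were those of miR-451-5p, miR-486, miR-126a-3p, miR-10b-5p, miR-122-5p, miR-143-3p, miR-145-5p and miR-541-5p. The 8 smallest ran from 1.28% to 5.66% and belonged to miR-186-5p, miR-146a-5p, miR-374-5p, miR-199a-3p, miR-423-5p, miR-23b-3p, miR-26a-5p and miR-652-3p. As shares of listed reads the same 8 varied by 12.6% to 21.4%.

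miRNAs of vessels and smooth muscle were high in normal 12. miR-126a-3p, made in endothelial cells from an intron of Egfl7, was at 812, 332 and 331 RPM in normal 12, normal 34 and normal 56, and miR-126a-5p at 44.9, 17.8 and 15.3. miR-143-3p of smooth muscle and fibroblasts was at 2182, 956 and 974 RPM, and its neighbour miR-145-5p at 94.6, 41.2 and 48.1. miR-10b-5p, from the HoxD cluster, was at 284, 112 and 121 RPM, while miR-10a-5p, from the HoxB cluster, was at 11.1, 9.18 and 17.5. Against the mean of the other two libraries normal 12 was 2.09 to 2.72 times as high for miR-126a-3p, miR-126a-5p, miR-143-3p, miR-145-5p, miR-145-3p and miR-10b-5p. By RPM normal 12 was the highest library for 19 of the 235 members and the lowest for 161. By share of listed reads it was the highest for 160 and the lowest for 16, so on that scale these 6 followed the direction of most members. For the stromal miR-199a-3p, miR-199a-5p and miR-214-3p the same ratio was 1.04, 1.03 and 1.11. How far the tissue taken for each library differed was not tested.

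Red blood cell miRNAs were low in normal 34. miR-486 was at 192, 50.2 and 201 RPM in normal 12, normal 34 and normal 56, and the erythroid miR-451-5p at 121, 31.9 and 141 RPM. The level in normal 34 was 0.255 and 0.243 times the mean of the other two. The liver miRNA miR-122-5p, which circulates in plasma, was at 59.4, 31.6 and 102 RPM, also lowest in normal 34. By RPM miR-192-5p and miR-194-5p of the same list were highest there, at 388 and 170. By share of listed reads miR-194-5p was instead lowest there, at 0.0298%, 0.0260% and 0.0267% in normal 12, normal 34 and normal 56. miR-192-5p was nearly level, at 0.0601%, 0.0592% and 0.0592%. miR-486, miR-451-5p and miR-122-5p were lowest in normal 34 on both scales. Normal 34 was lowest for 50 of the 235 members by RPM and for 134 by share. How far blood left in the tissue differed between libraries was not tested. Both miR-144 arms, made from the same transcript as miR-451, stayed at or below 0.182 RPM.

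miRNAs of the imprinted Dlk1-Dio3 region were high in normal 56. This region carries a large array of miRNA genes expressed from the maternal chromosome. Of the 75 listed arms 24 were members, beside 235 of all 765 listed miRNAs. All 24 were highest in normal 56, where 91 of the 235 members were. By share of listed reads it was 22 of 24, against 46 of 235. miR-127-3p, the most abundant, was at 1593, 1388 and 2719 RPM in normal 12, normal 34 and normal 56, miR-379-5p at 489, 449 and 869, miR-411-5p at 201, 191 and 336, and miR-434-3p at 138, 121 and 231. The median ratio of normal 56 to the mean of the other two was 1.78 over the 24, against 1.05 over all members, and ran from 1.19 for miR-300-3p to 2.57 for miR-493-5p. Arms of 1 hairpin moved together: miR-409a-5p was at 11.2, 7.81 and 21.3 RPM and miR-409a-3p at 14.4, 13.0 and 28.7. With 1 library showing it, this has no replicate check.

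**Figure D5:**
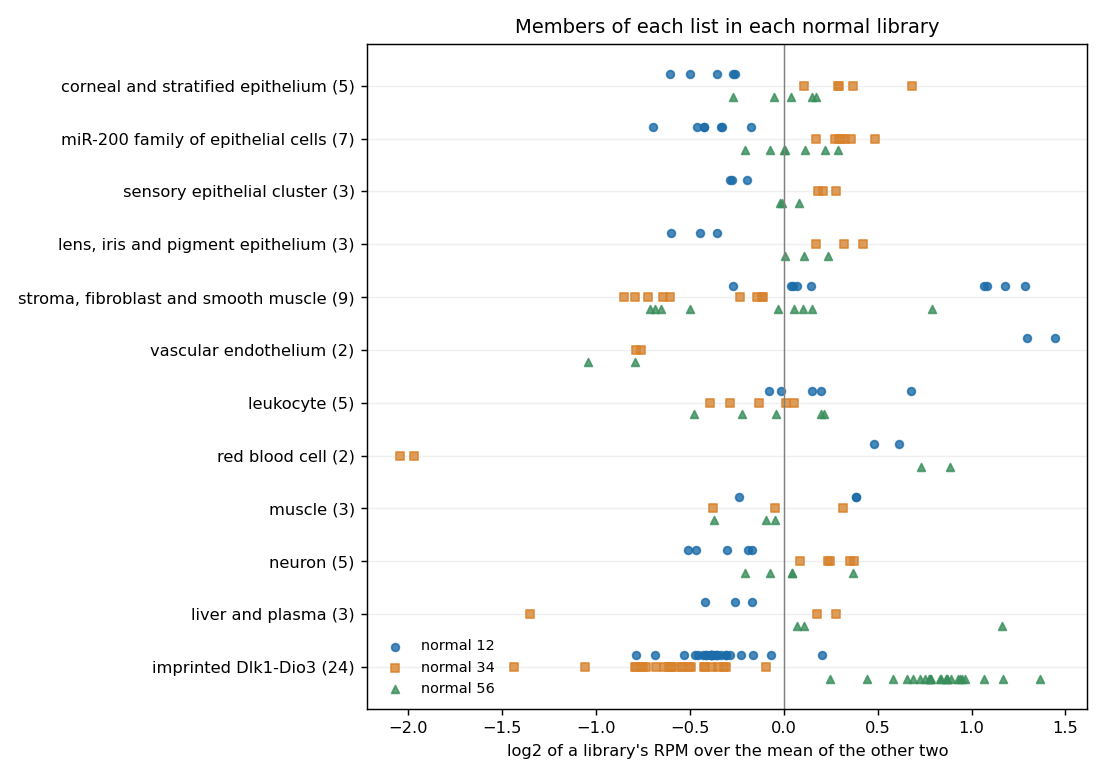
log2 of the RPM in a library over the mean of the other two libraries, for each member (symbol) of 12 marker lists, with the number of members in brackets. The Dlk1-Dio3 members lie to the right in normal 56, the endothelial ones to the right in normal 12 and the red blood cell ones far to the left in normal 34.

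Genes that lie together did not give equal levels. With hairpins within 10 kb on 1 strand of GRCr8 taken as a cluster, 111 of the 211 members with a sequence had a gene in a cluster, and 11 clusters held at least 3 members counted by their higher arm with a sequence. Members without a sequence are not counted, which leaves out the cluster of miR-200b-3p, miR-200a-3p and miR-429, at 11993, 2774 and 485 RPM. Over these 11 the median ratio between the highest and the lowest member was 15.6. Hairpins without a member did not enter, so the full range of a cluster can be wider. In the cluster of miR-379 12 of 34 hairpins were counted, and in miR-17-92 4 of 6. The widest of the 11 clusters was that around miR-127, from miR-127-3p at 1900 RPM to miR-493-5p at 15.0, a ratio of 127. In the adjoining cluster of miR-379 it was 81.9, down to miR-381-3p at 7.36 RPM. In the miR-17-92 cluster miR-92a-3p was at 1017 RPM, miR-20a-5p at 425, miR-17-5p at 151 and miR-19b-3p at 27.8, a ratio of 36.6. The same value arose in the related miR-363 cluster, because miR-92a-3p, miR-17-5p and miR-19b-3p have genes in both and reads cannot be assigned to either.

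The others among the 6 widest of these 11 were let-7f-5p with let-7a-5p and let-7d-5p, at 33.1, and miR-182 with miR-183-5p and miR-96-5p, at 15.6. let-7f-5p and let-7a-5p also have genes elsewhere, so their ratio is not of this cluster alone. At the other end, miR-24-3p, miR-23a-3p and miR-27a-3p stood within a ratio of 1.21, at 1855, 1718 and 1535 RPM. Their paralogues parted, as miR-27b-3p was 8.46-fold above miR-23b-3p. miR-24-3p has genes in both of these clusters.

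Of the 183 genes of members placed in that assembly, 91 lay within the span of a protein-coding gene on either strand, 43 within that of a long non-coding RNA gene alone and 49 in neither. The genes of miR-184, miR-148a, miR-203a and miR-205, the 4 most abundant miRNAs, were among the 49. The gene of miR-26a-5p lies in Ctdspl and that of miR-26b-5p in Ctdsp1, related phosphatase genes. The genes of miR-27b-3p and miR-23b-3p lie in Aopep, that of miR-378a-3p in Ppargc1b and that of miR-199a-3p in Dnm3.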

How the data were processed

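Per the labels' protocols, Trizol was used for extraction, and the Illumina TruSeq small RNA kit with an input of 1 ug total RNA for sequencing libraries. The deposited table gives RPM, computed by the authors, for 765 mature rat miRNAs. bcl2fastq, BWA and the rat build rn6 are named in the submitters' processing notes. Not given in the sources here were versions, trimming, the annotation of miRNAs and how reads fitting more than 1 miRNA were handled.

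RPM moved in steps of 1 read, and 100% of values came out whole within 0.1 read of a common total. Reads recovered this way gave the exact 95% binomial (Clopper-Pearson) intervals, which cover counting error only. The recovery was tested on simulated data. Means and SD are over the 3 normal libraries, and no groups were compared, so no count test was run. An arm at 0 was set to 3 reads. RefSeq sequences and gene positions are of GRCr8, which differs from the build of the files, so no coordinates are given.

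The members and lists were chosen with earlier results of these data known. Named were the 30 most abundant members, the 12 largest seed groups, for arms the 6 nearest to equal, the 6 most 5p and the 6 most 3p above 50 RPM, the 8 largest and 8 smallest coefficients of variation above 50 RPM, 4 miRNAs on each side of the limit, the 6 clusters with the widest range among those with at least 3 members, and members of 15 fixed lists. Other miRNAs were named after their values were seen. Alternatives changed the limit, the denominator, the scaling, the seed and the libraries used. Python 3.11.15, pandas 2.3.3, numpy 2.4.6, scipy 1.17.1 and matplotlib 3.10.9 were used.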

Additional observations from a re-analysis of the deposited data

How the results depend on the processing

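Of 280 recomputed values 249 stayed within the replicate spread or, for counts, within 1.5 times, 31 moved and 0 changed sign. Many of the 249 were fixed in advance, so this count does not measure robustness. The limit, the scaling and the pseudocount do not enter the shares, which then repeat the main value. Leaving 1 of 3 libraries out cannot move a mean share or mean log2 ratio past its SD. With a limit of 1 RPM the 5p arm was higher in 89 hairpins and the 3p arm in 91, against 77 and 69. With a limit of 50 RPM there were 117 members, 48 hairpins with the 5p and 34 with the 3p arm higher. With the higher arm at a mean of at least 50 RPM, 54 hairpins were higher in 5p and 36 in 3p. As percent of the RPM total, miR-184 held 28.9, the 10 most abundant 45.2, the let-7 seed group 5.55, the miR-148a group 3.05, the epithelial list 34.04, the miR-200 list 1.84, the stromal list 1.09, the leukocyte list 0.0307 and the Dlk1-Dio3 list 0.360. As percent of the listed reads without miR-184, the 10 most abundant held 59.8, let-7 19.3, the miR-148a group 10.6, the epithelial list 17.9, the miR-200 list 6.37, the stromal list 3.85, the leukocyte list 0.108 and the Dlk1-Dio3 list 1.26, and a mean of 37.3 miRNAs reached 90%. Both follow from the changed denominator. The median coefficient of variation of 14.3% became 15.8% with a limit of 1 RPM, 13.9% with 10, 13.3% with 50 and 14.7% with the limit on the mean. It was 11.3% scaled to the listed sum, 9.77% scaled by the median of ratios, and 9.08% to 15.8% when 1 library was left out. Grouping by the number in the name, chosen after seeing the data, gave let-7 9.77% and miR-148 5.05%. No paired analysis was possible because no comparison between groups was made. With 3 libraries of unstated origin the spread is poorly known, and arms with a few reads give wide ratios. Near-identical miRNAs can exchange reads.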
